A study of Mus musculus with 8 samples.

Results

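Actin filaments turn over because some proteins cut and dismantle them while others hold, recharge and return the freed monomers, and 10 mouse genes of this machinery were followed in liver in which Capzb, a subunit of capping protein, was deleted. They were taken by gene symbol and comprise the cofilin family (Cfl1, Cfl2, Dstn), the cofilin helpers Wdr1 and Coro1c, the profilins Pfn1 and Pfn2, the cyclase-associated protein Cap1, and the beta-thymosins Tmsb4x and Tmsb10. All 10 were found among the 24421 symbols of the count table, and all 10 had enough counts to be tested among 12985 genes. The choice of genes used no measured value, but earlier results of these data were known when it was made.

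The 8 stranded poly(A) RNA libraries came from perfused livers of C57BL/6N mice of 8 to 10 weeks of age, 4 of them labelled WT and 4 labelled CAPZ_KO. CAPZ_KO mice carried Albumin-CreERT2 and Capzb-fl/fl and received a course of tamoxifen that began when they were between 4 and 6 weeks old. Tamoxifen switches on the Cre recombinase, which the albumin promoter expresses in hepatocytes, so that other cells of the liver keep an intact Capzb. The WT group mixed 2 kinds of animal, Capzb-fl/fl mice without Cre that had tamoxifen and Albumin-CreERT2;Capzb-fl/fl mice that had none, and the labels do not say which library is which. Both groups therefore share the floxed alleles, while Cre made active by tamoxifen was present only in CAPZ_KO, so that its own effect and that of the deletion cannot be told apart. Neither do the labels say whether every library is from its own mouse. By Xist and Y-linked genes each group held 1 female library beside male ones, so each holds more than 1 mouse. The p-values therefore speak only to the spread over these 8 samples, which may be in part technical.

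Capping protein sits on the fast-growing (barbed) end of an actin filament and stops subunits from being added or lost there. Cofilin and its relative destrin bind older filament, sever it and speed the loss of subunits, with Wdr1 and coronins as partners. Profilin loads freed monomers with ATP and hands them to growing ends, cyclase-associated protein helps to strip cofilin from monomers, and beta-thymosins hold monomers in reserve. The pool of free monomers is also read by the transcriptional coactivators MRTF-A and MRTF-B, which monomeric actin keeps from SRF, a factor that binds the CArG box.

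Total counts ran from 12060350 to 18916315 per library. Levels are given as CPM, which are counts scaled to a common library size with a TMM correction for composition. Capzb itself, the deleted gene, had no overlap between groups, at 120.2 ± 13.4 CPM in WT and 72.5 ± 6.80 CPM in CAPZ_KO (SD, n = 4), a log2 difference of −0.73 ± 0.125 (SE, adjusted p = 0.00134 by edgeR). Scaled by library sizes alone it was at −0.10 (adjusted p = 0.442 by edgeR), which ends the call, and at −0.73 relative to the median of all genes. With edgeR and a threshold of 0.05 on the adjusted p, 41.4% of all genes tested passed. Those higher in CAPZ_KO made up 22.4% of the genes tested, and those lower 19.0%. Scaled by library sizes alone, 91.6% of the calls were higher, against 54.1% with TMM, and the median of all genes moved by 0.62 on the log2 scale. In bulk liver RNA, a change in the number of cells of a type and a change in RNA per cell cannot be told apart.

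Most of the turnover genes rose in CAPZ_KO liver. Of the 10, 8 rose at an adjusted p under 0.05 by edgeR, none fell, and Cfl2 and Pfn2 did not pass. Over all genes tested, 22.4% rose and 41.4% passed in either direction. Summed over the 10 genes, levels ran from 1170 to 1470 CPM in WT and from 2171 to 2547 CPM in CAPZ_KO. The median log2 fold change of the 10 was 0.92, beside −0.003 over all genes tested. For 7 of the 10 every CAPZ_KO library lay above every WT library, a pattern found in 22.1% of all genes tested. No gene of the 8 changed direction with the scaling, and relative to the median of all genes the median of the 10 was 0.93 by library sizes alone.

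**Figure D1:**
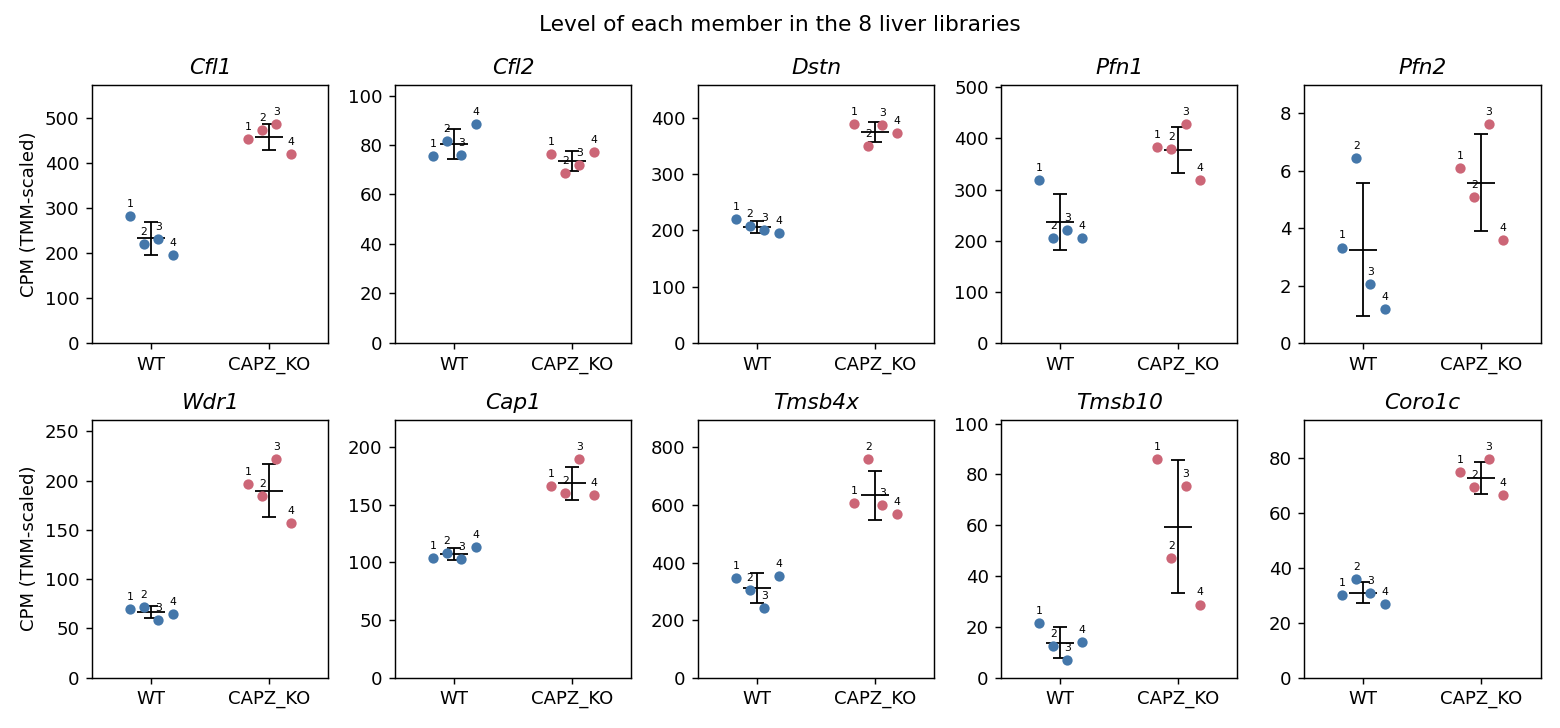
Level of each turnover gene (CPM, vertical axis, from 0) in the 4 WT and 4 CAPZ_KO libraries, with points numbered by replicate and black bars for mean and SD. The groups are apart for 7 genes, touch for Pfn1 and overlap for Cfl2 and Pfn2.

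Cofilin and destrin both rose, and the muscle-type cofilin did not pass the test. Cfl1, the cofilin of non-muscle cells (chromosome 19, 5490455 to 5495201, GENCODE on GRCm38, as for the genes that follow), stood at 281.4, 219.6, 231.7 and 196.4 CPM in WT 1 to 4 and at 453.1, 474.3, 486.3 and 420.6 CPM in CAPZ_KO 1 to 4. Every CAPZ_KO library was thus above the highest WT library. The means, 232.3 ± 35.9 and 458.6 ± 28.8 CPM (SD, n = 4), gave a 1.97-fold ratio and a log2 fold change of 0.98 ± 0.145 (SE, adjusted p = 5.6e-04 by edgeR). Dstn, destrin or actin depolymerizing factor (chromosome 2, 143915320 to 143943324), held 219.1, 208.2, 200.1 and 195.6 CPM in WT and 388.1, 349.9, 386.0 and 372.7 CPM in CAPZ_KO. Its libraries were the most closely grouped of the risen genes in CAPZ_KO, with a coefficient of variation of 4.70%. The log2 fold change of Dstn was 0.86 ± 0.117 (SE, adjusted p = 3.5e-04 by edgeR).

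Cfl2, the cofilin that predominates in muscle (chromosome 12, 54858809 to 54862877), was at 75.6, 81.6, 75.8 and 88.4 CPM in WT and at 76.5, 68.8, 72.0 and 77.3 CPM in CAPZ_KO. The groups overlapped, and the log2 fold change was −0.13 ± 0.107 (SE, adjusted p = 0.372 by edgeR). With library sizes alone it was 0.50 (edgeR adjusted p = 0.00597), which is −0.12 relative to the median of all genes. Skeletal muscle markers summed to 45.0 CPM in CAPZ_KO 2 and to at most 2.06 CPM in the other 7 libraries, and Cfl2 was lowest in CAPZ_KO 2. An exon of Cfl2 shares 81 bases with a gene on the opposite strand (1700081N11Rik), and the strand setting of the counting is not given in the sources used here.

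The windows around the starts of 4 genes are shown, because they hold both kinds of case: the 3 with a stretch close to a CArG box, and Cfl2, of the cofilin family, with none. Each window runs from 250 bases before to 50 bases after the start (RefSeq, GRCm38.p6), 5′ to 3′ on the strand of the gene, and capitals mark stretches that differ from the CArG box by at most 1 base.
Cfl1: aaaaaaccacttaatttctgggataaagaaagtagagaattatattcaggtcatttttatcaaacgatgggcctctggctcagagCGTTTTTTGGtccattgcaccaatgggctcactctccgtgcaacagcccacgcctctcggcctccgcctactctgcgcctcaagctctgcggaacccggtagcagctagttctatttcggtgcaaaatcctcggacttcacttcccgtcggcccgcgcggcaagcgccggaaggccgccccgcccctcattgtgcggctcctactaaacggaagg
Dstn: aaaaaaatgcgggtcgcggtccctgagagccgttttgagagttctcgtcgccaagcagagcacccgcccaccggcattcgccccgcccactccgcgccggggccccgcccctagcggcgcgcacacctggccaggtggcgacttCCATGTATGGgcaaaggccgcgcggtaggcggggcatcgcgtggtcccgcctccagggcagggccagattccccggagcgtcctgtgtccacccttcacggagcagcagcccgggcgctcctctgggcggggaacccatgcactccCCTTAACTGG
Wdr1: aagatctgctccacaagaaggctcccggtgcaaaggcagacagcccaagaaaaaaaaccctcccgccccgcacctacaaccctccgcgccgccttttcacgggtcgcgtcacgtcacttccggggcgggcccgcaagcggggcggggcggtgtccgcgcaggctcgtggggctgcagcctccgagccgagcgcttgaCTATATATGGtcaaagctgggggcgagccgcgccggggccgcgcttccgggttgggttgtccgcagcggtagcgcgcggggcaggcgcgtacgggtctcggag
Cfl2: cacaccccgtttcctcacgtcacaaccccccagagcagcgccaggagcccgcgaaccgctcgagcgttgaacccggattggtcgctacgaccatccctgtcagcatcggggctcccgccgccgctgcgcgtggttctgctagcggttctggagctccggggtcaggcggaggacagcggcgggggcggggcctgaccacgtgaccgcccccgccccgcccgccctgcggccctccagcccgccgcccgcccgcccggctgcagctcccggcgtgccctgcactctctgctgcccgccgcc
The windows lie at chr19:5490205-5490504 (plus strand) for Cfl1, chr2:143915081-143915380 (plus strand) for Dstn, chr5:38561650-38561949 (minus strand) for Wdr1 and chr12:54862828-54863127 (minus strand) for Cfl2, and RefSeq starts can differ from the GENCODE gene ends given here.

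Windows were found for all 10 genes, and both strands were searched. None of the 10 held an exact CArG box, which 1.60% of the 9939 tested genes with a window held. Allowing 1 other base, a setting chosen after the windows were seen, Cfl1, Dstn and Wdr1 held a match, 3 of 10 beside 20.1% of tested genes. The other 5 risen genes (Coro1c, Pfn1, Cap1, Tmsb4x and Tmsb10) held none, and neither did Cfl2 or Pfn2. The match of Cfl1 began 165 bases before the start and that of Wdr1 53 bases before it, while Dstn had matches 106 bases before and 40 bases after its start. The GC box GGGCGG was in windows of 9 of the 10 genes and of 66.9% of tested genes, with Cap1 the exception. The TEAD motif GGAATG was in that of Pfn1 alone, beside 14.7% of tested genes, and the AP-1 motif TGANTCA in none of the 10, beside 6.59%. A match is only a match of letters and shows no binding.

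Both partners of cofilin rose, Wdr1 and Coro1c. Wdr1, also called AIP1, which speeds the disassembly of cofilin-bound filament (chromosome 5, 38526813 to 38563221), was at 69.9, 71.9, 58.4 and 64.8 CPM in WT and 196.9, 184.2, 221.8 and 156.6 CPM in CAPZ_KO. The lowest CAPZ_KO library was above every WT library by a wide gap. Its ratio of means was 2.86 and its log2 fold change 1.52 ± 0.140 (SE, adjusted p = 4.7e-05 by edgeR). Coro1c, a widely expressed coronin that binds filaments (chromosome 5, 113842436 to 113908758), was at 30.2, 35.9, 30.9 and 26.9 CPM in WT and 74.8, 69.3, 79.6 and 66.6 CPM in CAPZ_KO. The groups were apart, with a log2 fold change of 1.23 ± 0.125 (SE, adjusted p = 7.7e-05 by edgeR). Whether the folds of these partners differ from that of cofilin was not tested. An exon of Coro1c shares 372 bases with Gm17122 on the opposite strand.

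Of the profilins, the abundant one rose modestly and the scarce one could not be called. Pfn1 (chromosome 11, 70651850 to 70654644) held 318.7, 205.1, 221.0 and 204.5 CPM in WT and 383.4, 379.8, 427.7 and 318.3 CPM in CAPZ_KO. WT 1 lay apart from the other WT libraries and just above CAPZ_KO 4, so the groups touched. The log2 fold change was 0.67 ± 0.177 (SE, adjusted p = 0.0128 by edgeR), which became 0.84 without WT 1. Without CAPZ_KO 3 the log2 fold change was 0.56 (adjusted p = 0.0573 by edgeR).

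Pfn2, the profilin enriched in brain (chromosome 3, 57841895 to 57848079), had 31, 98, 29 and 18 counts in WT and 135, 102, 126 and 70 counts in CAPZ_KO. That is 3.32, 6.45, 2.06 and 1.17 CPM against 6.08, 5.08, 7.62 and 3.58 CPM, so that WT 2 reached the range of CAPZ_KO. The log2 fold change was 0.78 ± 0.459 (SE, adjusted p = 0.199 by edgeR), with the widest error of the 10 genes. Without WT 2 it was 1.38 (edgeR adjusted p = 0.022), and with library sizes alone 1.42 (edgeR adjusted p = 0.0207).

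Cap1, the cyclase-associated protein of most tissues (chromosome 4, 122859047 to 122886056), was at 103.9, 108.2, 102.5 and 113.6 CPM in WT and 166.1, 160.3, 189.5 and 158.1 CPM in CAPZ_KO. Every CAPZ_KO library lay above the WT range, and its rise was close in size to that of Pfn1. The log2 fold change was 0.65 ± 0.114 (SE, adjusted p = 0.00141 by edgeR). Its exons share 32 bases with Ppt1 on the opposite strand.

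Both beta-thymosins rose, the scarcer one with the larger and more variable fold. Tmsb4x, the main monomer-holding peptide of many cells (chromosome X, 167207093 to 167209315), was at 345.9, 303.4, 240.4 and 353.5 CPM in WT and 607.1, 759.6, 601.3 and 568.5 CPM in CAPZ_KO. The lowest CAPZ_KO library exceeded the highest WT library. The log2 fold change was 1.03 ± 0.168 (SE, adjusted p = 9.8e-04 by edgeR). Tmsb10, its close relative (chromosome 6, 72957347 to 72958748), was at 21.7, 12.3, 7.10 and 14.1 CPM in WT and 86.0, 47.2, 75.5 and 28.8 CPM in CAPZ_KO. The groups did not overlap, but CAPZ_KO libraries differed among themselves with a coefficient of variation of 44.1%. The log2 fold change was 2.12 ± 0.403 (SE, adjusted p = 0.00288 by edgeR), and the ratio of means was 4.30.

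Because levels of different genes can be compared only per length, CPM were divided by the length of merged exons (GENCODE vM21). In WT, Pfn1 and Tmsb4x led with means of 231.3 and 226.7 CPM per kilobase, above 97.3% and 97.2% of tested genes. Their ranges over libraries overlapped, so that their order in WT was not resolved. Dstn at 107.7 and Cfl1 at 92.8 CPM per kilobase followed, with ranges that overlapped although Dstn was above Cfl1 within each of the 4 WT libraries. This order rests on the merged exon lengths, 1911 bases for Dstn and 2503 for Cfl1. In counts without that division, Cfl1 was above Dstn in every library. Cap1 (38.7), Cfl2 (27.3) and Wdr1 (21.5) came next in CPM per kilobase, then Tmsb10 (10.8) and Coro1c (8.88), which overlapped, and Pfn2 (0.918) was last.

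In CAPZ_KO the order changed in places. Tmsb4x, at 462.5 CPM per kilobase, had the highest mean, with Pfn1 at 367.7 and overlapping libraries. Wdr1, below Cfl2 in every WT library, was above it in every CAPZ_KO library, at 61.5 against 25.0 CPM per kilobase. Tmsb10 reached 46.5 CPM per kilobase and moved from above 68.4% of tested genes to above 90.8%. Pfn2 was again the lowest, at 1.58 CPM per kilobase, above 23.8% of tested genes.

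**Figure D2:**
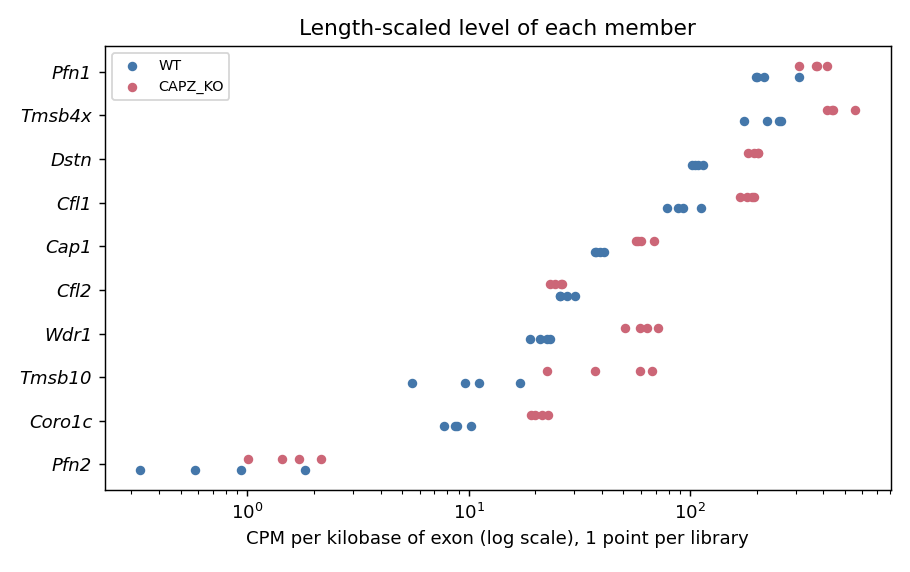
CPM per kilobase of exon (log axis) of the 10 genes, ordered by their WT mean, with 1 point per library. Wdr1 and Tmsb10 overtake Cfl2 in their CAPZ_KO means, at 61.5 and 46.5 against 25.0 CPM per kilobase. Within libraries, Wdr1 is above Cfl2 in every CAPZ_KO library. Tmsb10 is above it in all but CAPZ_KO 4, where it is at 22.6 against 26.3 CPM per kilobase.

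Ratios of related genes within a library do not depend on the scaling, and 5 were compared. The paired coding sequences are not near-identical, with 71.5% identical bases between Cfl1 and Cfl2, 68.8% between Cfl1 and Dstn, 66.8% between Cfl2 and Dstn, 61.7% between Pfn1 and Pfn2 and 69.7% between Tmsb4x and Tmsb10. The ratio of Cfl2 to Cfl1 counts on the log2 scale was −1.90, −1.43, −1.61 and −1.15 in WT and −2.57, −2.79, −2.76 and −2.44 in CAPZ_KO. It was thus lower in every CAPZ_KO library, by a mean difference of −1.12. Cfl2 to Dstn was likewise lower in every CAPZ_KO library, at −1.36 ± 0.161 in WT and −2.35 ± 0.0628 in CAPZ_KO (log2, SD, n = 4), a difference of −0.99. For both ratios the exact two-sided permutation test gave p = 0.0286, the smallest that 70 arrangements allow, and p = 0.0714 after Benjamini-Hochberg adjustment over the 5 ratios, which misses 0.05. Per length, Cfl2 made up 12.1% ± 1.70 of the cofilin family's signal in WT and 6.21% ± 0.431 in CAPZ_KO (SD, n = 4). Dstn made up 47.3% ± 1.53 and 48.5% ± 1.73, and Cfl1 40.6% ± 3.14 and 45.3% ± 2.10. These shares depend on the merged exon lengths used.

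The other ratios overlapped between groups. Cfl1 to Dstn was at 0.16 ± 0.157 in WT and 0.29 ± 0.118 in CAPZ_KO (log2, SD, n = 4; exact permutation p = 0.257, adjusted p = 0.321). Tmsb10 to Tmsb4x differed by 1.05 on the log2 scale, with CAPZ_KO 2 and CAPZ_KO 4 inside the WT range (exact permutation p = 0.0857, adjusted p = 0.143). Tmsb10 made up 4.42% ± 1.36 of the per-length thymosin signal in WT and 9.13% ± 4.01 in CAPZ_KO (SD, n = 4). Pfn2 to Pfn1 differed by 0.31 on the log2 scale (exact permutation p = 0.6, adjusted p = 0.6), and Pfn1 held 99.6% of the per-length profilin signal in both groups.

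**Figure D3:**
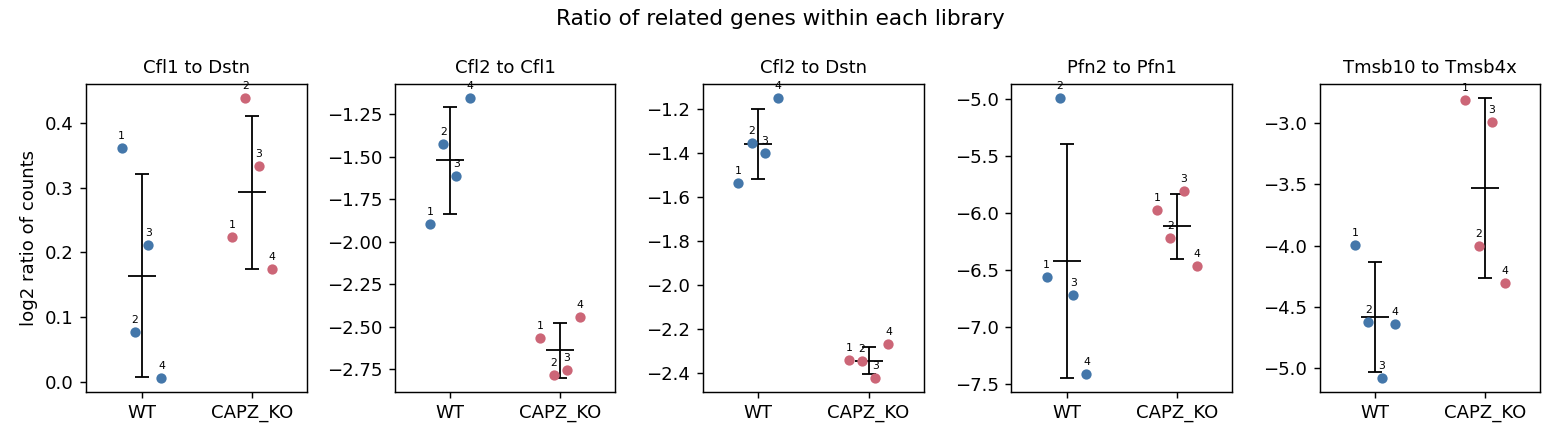
Log2 ratio of counts of 2 related genes within each library (vertical axis, a separate range per panel), with points numbered by replicate and bars for mean and SD. Cfl2 is lower against both Cfl1 and Dstn in all 4 CAPZ_KO libraries, while the other 3 ratios overlap between groups.

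The cytoplasmic actins, which these proteins bind, rose as well. Actb rose by 1.64 ± 0.252 and Actg1 by 2.69 ± 0.237 (log2, SE, edgeR adjusted p = 6.9e-04 and 3.8e-05). Set against the summed counts of Actb and Actg1 in the same library, 9 of the 10 genes had a lower mean log2 ratio in CAPZ_KO, as did 94.1% of all genes tested, and Tmsb10 was the exception at 0.33. A share of 9 in 10 is near that background, and these differences were not tested. They ranged among the 9 from −1.88 for Cfl2 to −0.25 for Wdr1, and were −0.77 for Cfl1, −0.89 for Dstn, −1.07 for Pfn1, −1.11 for Cap1 and −0.72 for Tmsb4x. For Cfl1, Cfl2, Dstn, Pfn1 and Cap1 every CAPZ_KO library was below every WT library in this ratio, a pattern found in 73.4% of all genes tested.

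Other genes of actin disassembly and monomer control were followed as a wider list of 46 genes, of which 34 were tested. Of these, 17 rose, 2 fell and 15 did not pass by edgeR, beside 22.4% higher and 19.0% lower over all genes, and their median log2 fold change was 0.46. Under library sizes alone 31 were higher and 1 lower, beside 7665 higher and 700 lower of all 12985 genes tested.

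Among the 7 tested kinases and phosphatases that set cofilin's phosphorylation, 2 rose and 1 fell, a share near the 41.4% called over all genes. Limk1 and Limk2, the LIM kinases that switch cofilin off by phosphorylation, rose by 1.63 ± 0.284 and 0.67 ± 0.195 (log2, SE, edgeR adjusted p = 0.00144 and 0.0196), though Limk2 had adjusted p of 0.0533 and 0.0712 without WT 3 and without CAPZ_KO 2. Tesk2, a related kinase, fell by 0.73 (edgeR adjusted p = 0.00512), and was at −0.11 by library sizes alone (edgeR adjusted p = 0.549), which is −0.74 relative to the median of all genes. The phosphatases Ssh1, Ssh2 and Ssh3, which switch cofilin on, had log2 fold changes of 0.24, 0.12 and 0.37 with edgeR adjusted p of 0.433, 0.726 and 0.0744.

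Of 6 relatives of cofilin with the same actin-binding fold, 4 rose, beside 22.4% called higher over all genes. Cotl1, coactosin-like protein, went from 29.5 ± 4.77 to 82.3 ± 11.0 CPM (SD, n = 4), or 1.48 on the log2 scale (edgeR adjusted p = 9.1e-05). Twf2, a twinfilin that binds monomers and capping protein, rose by 1.23, and Dbnl, drebrin-like, by 0.77 (edgeR adjusted p = 5.9e-04 and 4.6e-04). Gmfb, a glia maturation factor that prunes filament branches, had an edgeR adjusted p of 0.0475, which went to between 0.0566 and 0.127 on leaving out any 1 of the 7 libraries other than WT 4. Twf1, the other twinfilin, was at 0.23 on the log2 scale (edgeR adjusted p = 0.144).

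Of 5 coronins tested besides Coro1c, Coro1a and Coro2a rose by 1.61 ± 0.288 and 1.22 ± 0.244 (log2, SE, edgeR adjusted p = 0.00175 and 0.00302). Coro1a is the coronin of blood cells. The other 3 coronins did not pass, and 2 called of 5 is near the 41.4% called over all genes. Of 5 gelsolin family genes tested, 4 rose, beside 22.4% called higher over all genes. Gsn, gelsolin, which severs and caps filaments, went from 15.0 ± 4.26 to 30.3 ± 5.28 CPM (SD, n = 4), or 1.02 on the log2 scale (edgeR adjusted p = 0.00361). Vil1, villin, a protein of microvilli, was close to 0 in WT, with 0, 0, 2 and 3 counts against 204, 87, 128 and 35 in CAPZ_KO. Vill, villin-like, rose by 2.84 and Flii, flightless I, by 0.43 (log2, edgeR adjusted p = 1.2e-04 and 0.0115).

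Of 5 genes of actin oxidation and its reversal, 2 rose, 1 fell and 2 did not pass, beside 22.4% higher and 19.0% lower over all genes. Of the enzymes that oxidize actin and so help to dismantle filaments, Mical1 and Mical2 rose by 1.61 and 1.02 (log2, edgeR adjusted p = 0.001 and 0.00349). Mical3 was at −0.17 on the log2 scale (adjusted p = 0.353 by edgeR). Msrb1, a methionine sulfoxide reductase that reverses this oxidation, fell from 399.5 ± 57.6 to 157.2 ± 23.0 CPM (SD, n = 4), or −1.35 on the log2 scale (edgeR adjusted p = 1.9e-04), while Msrb2, another such reductase, did not pass at 0.19 (adjusted p = 0.340 by edgeR). Of 6 tested genes linked to reading of the monomer pool, 3 rose and 3 did not pass, beside 22.4% called higher over all genes. Mkl1 and Mkl2, which encode MRTF-A and MRTF-B, rose by 0.90 and 1.07 (log2, edgeR adjusted p = 0.00152 and 0.00252). Phactr2, of a family of monomer-binding phosphatase regulators, rose by 0.67 with an edgeR adjusted p of 0.0274, which was 0.051 to 0.069 when WT 3 or any CAPZ_KO library was left out. Srf itself was at 0.24 on the log2 scale (edgeR adjusted p = 0.226). Phactr1 and Phactr4 did not pass either, at 0.02 and −0.16 (log2, edgeR adjusted p = 0.969 and 0.373). None of the 7 further profilin, CAP and thymosin genes had enough counts to be tested, and Pfn3, Tmsb15a, Tmsb15b2 and Tmsb15l were at 0 in all 8 libraries.

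**Figure D4:**
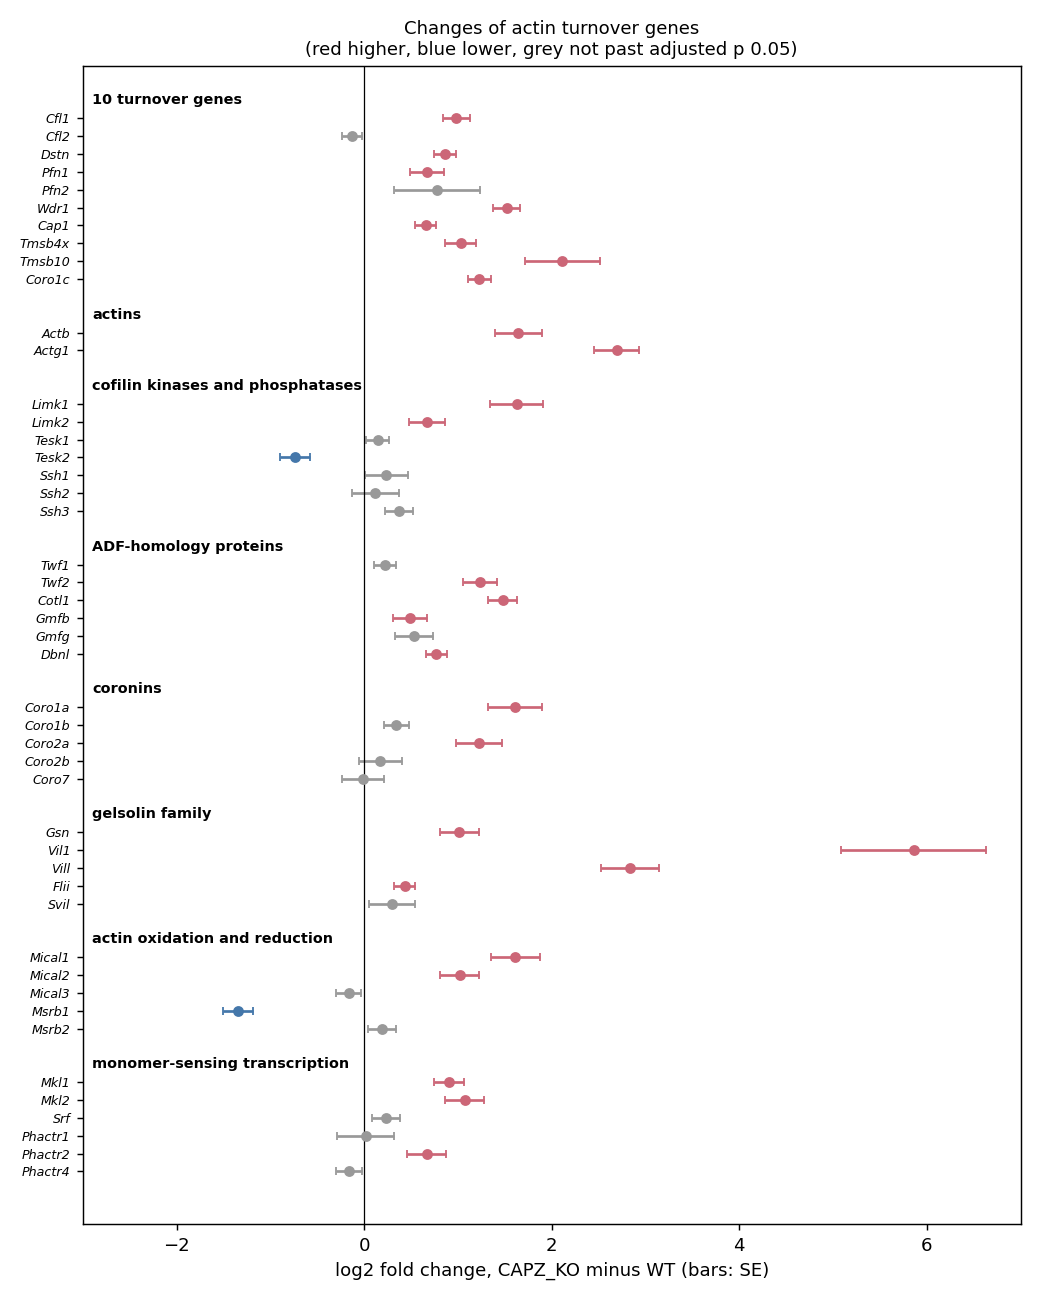
Log2 fold change of CAPZ_KO against WT (horizontal axis, bars for SE) of the 10 turnover genes, both cytoplasmic actins and the 34 tested genes of the wider list, by family. Of the wider list 17 are higher, 2 (Tesk2 and Msrb1) lower and 15 grey, not past the threshold.

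Several of these genes are abundant in cells other than hepatocytes, and marker lists of such cells were measured in the same libraries. Over all genes tested, 22.4% were called higher and 19.0% lower, against which these counts can be read. Hepatocyte markers were present and lower, with 7 of 9 tested genes lower and summed levels of 170424 to 226425 CPM in WT and 42826 to 64873 in CAPZ_KO. Macrophage and monocyte markers summed to 413.5 to 836.7 CPM in WT and 785.4 to 1429 in CAPZ_KO, with 6 of 9 tested genes higher. Stellate cell and fibroblast markers went from 364.9 to 436.8 CPM up to 908.7 to 1409, with 8 of 9 tested higher. Cholangiocyte markers went from 43.6 to 80.4 CPM up to 370.4 to 1093, with 5 of 8 higher. Most of that sum was Spp1, osteopontin, at 25.5 to 36.6 CPM in WT and 318.0 to 1010 CPM in CAPZ_KO, and without it the sum was 17.2 to 47.9 CPM in WT and 52.5 to 82.9 CPM in CAPZ_KO. The defining keratins Krt7 and Krt19 had edgeR adjusted p of 0.994 and 0.713. Cycling markers were higher for 7 of 7, Kupffer cell markers for 2 of 5 and neutrophil markers for 2 of 5. Endothelial markers were higher for 2 of 8, platelet markers for 1 of 3, and smooth and skeletal muscle markers for 1 of 2 each. Acta1, the called skeletal muscle gene, was at 0 to 0.13 CPM in WT and 0.72 to 18.5 CPM in CAPZ_KO, highest in CAPZ_KO 2. T and NK cell and B cell markers had 0 of 7 and 0 of 4 called, and the 1 tested neuronal and the 1 tested erythroid gene were lower. Hbb-bt, Hba-a1 and Snap25 were at 0 in all 8 libraries. Alas2, the tested erythroid gene, was at 16.2 to 142.3 CPM in WT. How reads with several matches were counted is not given, so a count of 0 need not mean that RNA was absent. The part of these cells in the rise of the turnover genes was not tested.

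The order of the CAPZ_KO libraries can be set beside these sums. CAPZ_KO 4 was the lowest CAPZ_KO library for 8 of the 10 genes, all but Cfl2 and Dstn, and CAPZ_KO 3 was the highest for 6. How often these orders occur over all genes was not counted, and a link of the order to the sums was not tested. CAPZ_KO 4 had the highest sum of macrophage and monocyte markers of the 8 libraries, at 1429 CPM, and the lowest cholangiocyte and cycling sums of the CAPZ_KO group, at 370.4 and 44.4 CPM. Kupffer cell and endothelial sums were also highest in CAPZ_KO 4, at 3191 and 588.2 CPM. The stellate cell and fibroblast sum of the CAPZ_KO group was lowest in CAPZ_KO 2, at 908.7 CPM. By Xist and Y-linked genes, since the labels give no sex, CAPZ_KO 4 was also the 1 female library of its group, as WT 4 was of the WT group. Without both female libraries, an alternative added after the data were seen, 8 of the 10 genes were again called higher.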

How the data were processed

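The authors deposited raw counts of reads, a row for each gene symbol and a column for each library. RNA was poly(A)-selected and the kit stranded, per the labels' protocols. Per the submitters' processing notes, the build was mm10 and the tools included STAR 2.5.3a, featureCounts, edgeR, bcl2fastq and R 3.3.1, whose roles the notes leave unsaid. Annotation, strand setting and treatment of reads with several matches: not given in the sources used here. Coding sequences of Cfl1, Dstn, Tmsb10 and Coro1c are at least 90% identical, over at least 80% of their length, to 3, 1, 8 and 2 other annotated genes (blastn 2.17.0), mostly pseudogenes, and no symbol of these is in the table, so reads shared with them are uncertain.

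Genes were kept by filterByExpr (minimum count 10, minimum total 15), which removed 0.0451% to 0.109% of a library's counts. TMM-scaled counts of all 8 libraries were tested by the edgeR 4.0.16 quasi-likelihood test (robust, R 4.3.3) with Benjamini-Hochberg adjustment over all 12985 genes and a threshold of 0.05. The SE of a log2 fold change is its size over the root of F. The common biological coefficient of variation was 24.9%. Ratios added 0.5 to each count. Exon lengths were found for 96.4% of tested genes. No library was a duplicate of another in its group (chi-square per degree of freedom at least 26.4). The edgeR step was tested on simulated counts. The genes followed, the wider list and the markers were chosen with earlier results of these data known. The genes named were the 10, Capzb, Actb, Actg1 and, per family of the wider list, up to 4 called genes with the smallest p. Uncalled genes of the wider list were named after their values were seen. Alternatives were other scalings, no filter, DESeq2 1.42.0, limma-voom (limma 3.58.1), the replicate number as a block, sex as a term, a threshold of 0.01 and leaving out each library.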

Additional observations from a re-analysis of the deposited data

Results flagged for a closer look

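Of 26 groups of 4 libraries looked at (Capzb, Actb, Actg1 and the 10 turnover genes in each group), 1 held a library far from the other 3 by Dixon's test, which chance gives in about 5% of groups. Pfn1 in WT 1 stood at 318.7 CPM, and its gap to the next WT library was 0.855 of the WT range. Without WT 1 the log2 fold change of Pfn1 was 0.84 (edgeR adjusted p = 0.00181).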

How the results depend on the processing

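The count of turnover genes called higher was 8 with TMM and lay between 7 and 10 under 18 alternatives, and none was called lower in any. It was 10 under library sizes alone, and 7 at a threshold of 0.01, where Pfn1 dropped out with its adjusted p of 0.0128. Leaving out 1 library gave 7 to 9. For the 10 genes, 175 of 180 values under alternatives kept both direction and side of the threshold. Cfl2 changed sign with library sizes alone, to 0.50, as that scaling moved the median of all genes by 0.62, and Pfn2 passed with it. Under library sizes alone Capzb was at −0.10 on the log2 scale (edgeR adjusted p = 0.442), or −0.73 relative to the median of all genes, and 8365 genes were called, 7665 higher and 700 lower, against 5382, 2913 and 2469 with TMM. At a threshold of 0.01 there were 3303 calls, 1864 higher and 1439 lower. The wider list had 19 calls with TMM, 17 higher and 2 lower, and 32 under library sizes alone, 31 higher and 1 lower. With the replicate number as a block, 8 turnover genes were called and no call among them changed. Same-numbered libraries deviated together with r of 0.24, 0.0089, 0.066 and 0.30 across genes. Of WT libraries 3 of 4, and of CAPZ_KO libraries 2 of 4, correlated best with their own number. Number 4 was the female library in both groups. These values do not settle whether the numbers pair the samples, and the main fit used no pairing. For the ratios, the block of 4 differences cannot give p below 0.125, and gave 0.125 for Cfl2 to Cfl1, Cfl2 to Dstn and Tmsb10 to Tmsb4x. Leaving out a library, the Cfl2 to Cfl1 difference was −1.24 to −0.99 and that of Pfn2 to Pfn1 −0.03 to 0.78. Depth limits Pfn2, with 18 to 135 counts per library, more than the other 9 genes.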
